A study of Mus musculus with 9 samples.

Results

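Circadian clock genes were followed in b.End3 cells after photodynamic therapy (PDT). The genes were Clock, Per1, Per2, Per3, Cry1, Cry2, Nr1d1, Nr1d2, Dbp, and Tef, chosen by name, and each of these 10 genes was listed once among the 54532 genes of the expression table. The cells are a mouse line labelled as brain microvessel endothelium of the C57BL/6 strain and grown as a monolayer; the growth notes call the line rat, whereas the organism field and the gene identifiers are mouse. RNA sequencing covered 9 libraries. Ctrl cells (n = 3) are labelled only as untreated. Ep1 (n = 3) and Ep2 (n = 3) cells were kept with the photosensitizer porfimer sodium at 300 µg/mL for 90 min and then exposed to a 635 nm laser at 100 mW/cm2, up to a light dose of 10 J/cm2 in the Ep1 group and 20 J/cm2 in the Ep2 group. The photosensitizer alone and the light alone have no library among the 9, so their shares in any difference from Ctrl cannot be told apart. The interval between light and lysis, the hour of harvest, and any synchronization of the cultures are not given in the sources used here. Nothing in the labels says that replicates came from separate cultures, so the p-values measure only the spread between these libraries, which may be technical.

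Values are FPKM, fragments scaled to gene length and to library size, which allows levels of different genes to be compared. Libraries held between 16240688 and 19509225 fragments on genes, and mitochondrial genes took 1.90% to 2.49% of them. The labelled cell type was checked against marker genes. Of 12 endothelial markers, only Flt1 and Egfl7 reached 1 FPKM in at least 3 libraries, 9 stayed under 1 FPKM in all libraries (Pecam1 at most 0.242 and Kdr at most 0.0594), and Emcn and Erg were listed at 0 throughout; summed endothelial marker levels were 10.2 to 10.4 FPKM in Ctrl, 10.3 to 11.8 in Ep1, and 13.3 to 14.4 in Ep2. Summed levels of 6 epithelial markers, led by the keratin genes Krt8, Krt18, and Krt19, were 1029 to 1081 FPKM in Ctrl, 937 to 1041 in Ep1, and 1155 to 1372 in Ep2. These keratins made up nearly all of that sum, since Epcam stayed at or under 2.03 FPKM, Cldn4 at or under 0.177, and Cdh1 at or under 0.103. Among 6 fibroblast markers, Col3a1 (30.8 to 41.2 FPKM) and Col1a1 (5.92 to 7.64) passed the filter, and the summed levels were 41.7 to 43.8 FPKM in Ctrl, 37.1 to 42.1 in Ep1, and 41.2 to 49.6 in Ep2. The defining endothelial markers were therefore mostly absent. The endothelial and epithelial sums were highest in the Ep2 group. Flt1 made up most of the endothelial sum, with means of 6.90 FPKM in Ctrl and 10.9 in Ep2. Egfl7 (2.09 and 1.65) and Cdh5 (0.857 and 0.753) had lower means in Ep2, with overlapping libraries. The part of these differences in the clock gene values was not tested. In RNA from whole cultures, fewer cells that express a gene and less of its RNA per cell cannot be told apart.

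The mammalian clock is a transcriptional feedback loop that runs in most cell types. The protein of Clock pairs with that of Arntl (BMAL1) and activates genes through E-box elements, among them the Per and Cry genes, whose proteins return to the nucleus and repress the pair. In a further loop, the nuclear receptors REV-ERBα and REV-ERBβ, encoded by Nr1d1 and Nr1d2, repress Arntl, while Dbp and Tef encode PAR bZIP activators that act through D-box elements and carry the rhythm to output genes. Per1 is also known as an early response gene that can be induced through cAMP response elements (CRE), outside the daily rhythm.

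The elements named above were searched for as exact letters, on both strands, in RefSeq promoter windows of the GRCm38.p6 assembly that run from 250 bases before to 50 bases after each transcription start. Of 32851 windows, 13 belonged to 9 of the clock genes, and Per2 was not among them. The E-box CACGTG was present in 7.15% of all windows and in those of Per1, Cry1, and Tef, the last at 2 of its starts. The variant E-box CACGTT was present in 4.685% of all windows and in those of Cry1, Cry2, and Nr1d1. A D-box, searched as TTATGTAA, TTACGTAA, or TTATGCAA, was present in 1.778% of all windows and in those of Per1 and Per3. Stretches of 30 bases around the E-box and D-box matches are shown, since the loop acts through elements of these kinds. Whether these matches act in these cells was not tested. The stretches are written 5′ to 3′ on the strand of the gene, with the matched letters in capitals (AACGTG is CACGTT read on the other strand).
Per1, E-box, chr11:69098771-69098800 (+): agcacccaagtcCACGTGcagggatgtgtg
Per1, D-box, chr11:69098914-69098943 (+): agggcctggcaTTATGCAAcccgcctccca
Per3, distal D-box, chr4:151044852-151044881 (-): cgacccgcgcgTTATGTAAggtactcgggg
Per3, proximal D-box, chr4:151044805-151044834 (-): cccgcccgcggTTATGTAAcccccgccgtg
Cry1, variant and canonical E-box, chr10:85185106-85185135 (-): gaAACGTGaggtgccggtggtCACGTGggg
Cry2, variant E-box, chr2:92434218-92434247 (-): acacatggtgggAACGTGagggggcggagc
Nr1d1, variant E-box, chr11:98775388-98775417 (-): cgcacagatctcAACGTGccggctgctgga
Tef, upstream start, E-box, chr15:81802534-81802563 (+): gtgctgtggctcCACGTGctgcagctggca
Tef, downstream start, E-box, chr15:81811264-81811293 (+): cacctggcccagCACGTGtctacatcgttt

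In Per1 the E-box began 166 bases and the D-box 24 bases before the start, and in Cry1 the variant and canonical E-boxes began 79 and 60 bases before it. The D-boxes of Per3 began 205 and 158 bases upstream and shared the same 8 letters. The full CRE, TGACGTCA, was present in 1.79% of all windows and in none of the 13, whereas its core TGACG, which the full element contains, was present in 20.812% of all windows and in those of Per1, Cry1, and Cry2. The receptor element of the REV-ERB loop, searched as TAGGTCA or TGGGTCA, was present in 6.453% of all windows and in none of the 13. A match is only a run of letters in the reference, and its absence says only that these letters are not in this window.

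**Figure D1:**
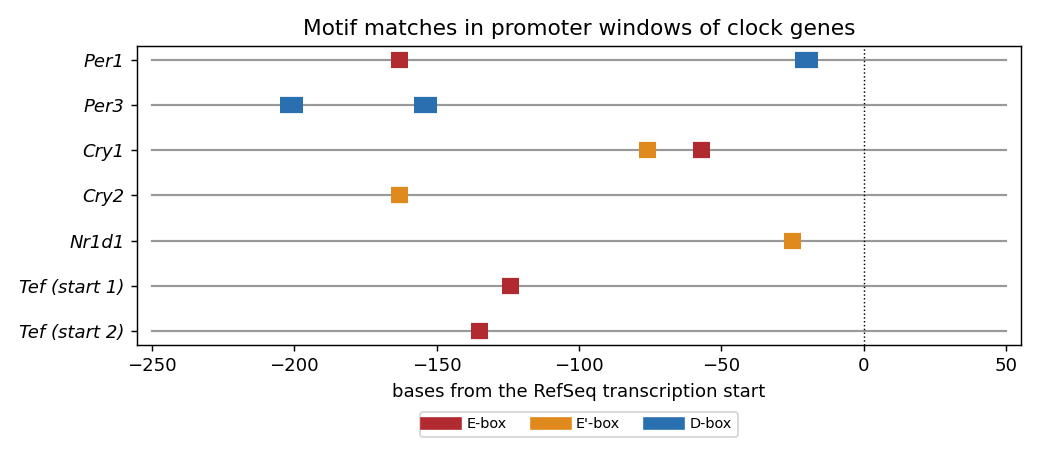
Positions of E-box (CACGTG), variant E-box (CACGTT), and D-box matches on either strand in the promoter windows of the clock genes that hold at least 1 match; the horizontal axis gives bases from the RefSeq transcription start (dotted line). All matches lie before the start. The windows of Per1, Per3, and Cry1 each carry 2, and the 2 windows of Tef shown carry 1 each.

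In Ctrl cells Per1 was the most abundant of the 10 genes, at 11.3 ± 1.28 FPKM (mean ± SD, n = 3 here and below). Nr1d1 (7.42 ± 1.14), Tef (6.77 ± 0.212), and Cry1 (6.49 ± 0.504) followed with overlapping ranges, and then Nr1d2 (5.33 ± 0.498) and Clock (5.31 ± 0.154), whose ranges also overlapped. Dbp (2.49 ± 0.242) and Cry2 (1.24 ± 0.0327) were lower. Per2 (0.753 ± 0.0196) and Per3 (0.353 ± 0.0182) stayed under 1 FPKM in every Ctrl library, on 84 to 85 and 60 to 70 fragments. In Ep2 cells the order had changed in the middle, with Nr1d1 and Nr1d2 directly behind Per1 and Cry1 below Clock and Tef. The plot of FPKM by library shows all 90 values.

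**Figure D2:**
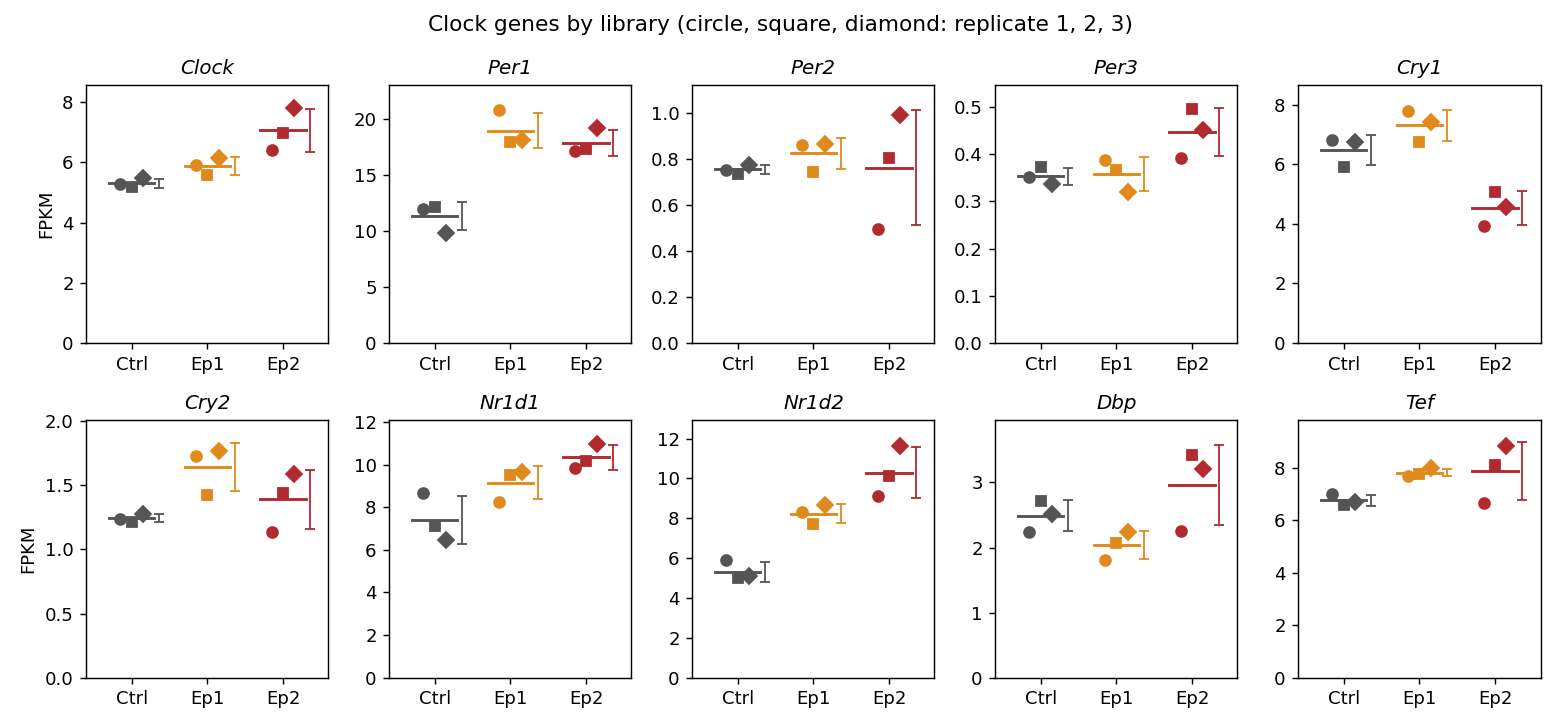
FPKM of the 10 clock genes in each library of Ctrl, Ep1, and Ep2 (circle, square, and diamond for replicates 1, 2, and 3; horizontal line, mean; bar beside it, SD; each vertical axis starts at 0). Per1 and Nr1d2 are higher in all treated libraries than in any Ctrl library, and Cry1 is lower in all Ep2 libraries than in any other library.

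Differences were tested with limma on log2(FPKM + 1) over the 11727 genes with at least 1 FPKM in at least 3 libraries, with Benjamini-Hochberg adjustment over all of them, so the fold changes understate those of low genes. Of the 10 clock genes, 8 passed this filter; Per2 and Per3 did not and have no adjusted p here. At 10 J/cm2, 2 of the 8 rose against Ctrl (Per1 and Nr1d2) and none fell, against 6.32% of all tested genes higher and 4.97% lower. At 20 J/cm2, 4 rose (Per1, Nr1d2, Nr1d1, and Clock) and 1 fell (Cry1), against 23.9% of all tested genes higher and 29.3% lower. Between the doses, 3 were higher in Ep2 than in Ep1 (Clock, Dbp, and Nr1d2) and 1 was lower (Cry1), against 18.8% and 25.2%. The median log2 fold change of the 8 was 0.21 at 10 J/cm2 and 0.27 at 20 J/cm2, beside -0.01 and -0.03 over all tested genes. With an absolute log2 fold change above 0.6 also required, Per1 remained at 10 J/cm2 (0.793% of all tested genes), Per1 and Nr1d2 at 20 J/cm2 (9.17%), and none between the doses (5.9%). Both doses were compared with the same Ctrl libraries.

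**Figure D3:**
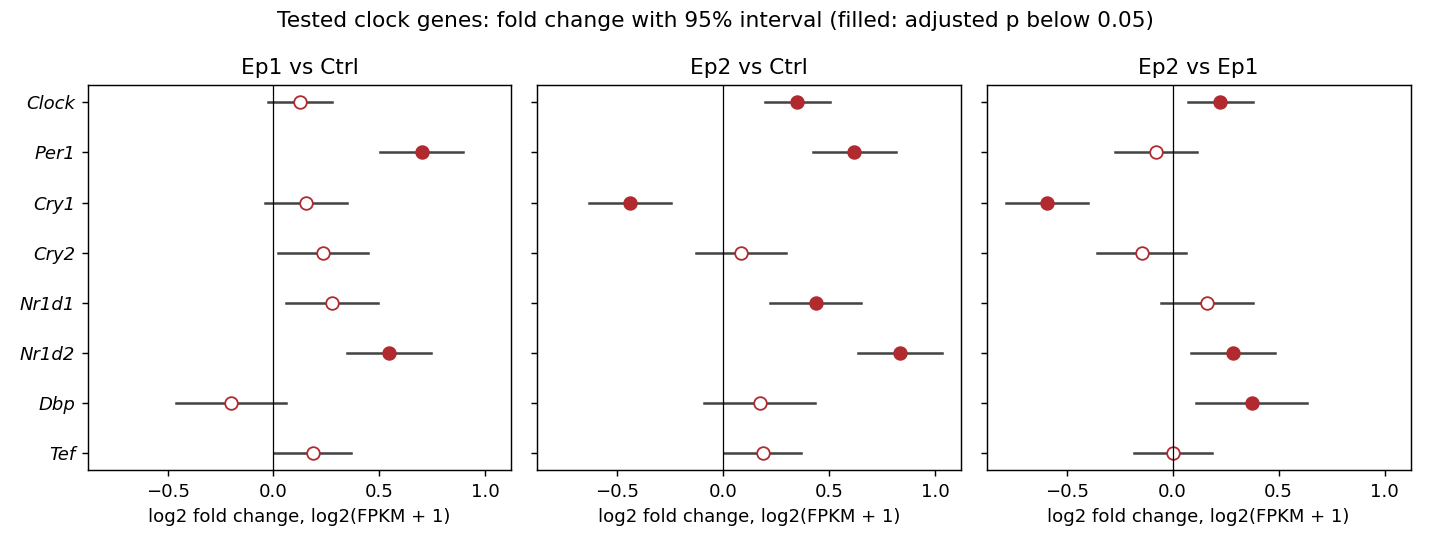
Difference in mean log2(FPKM + 1) of the 8 tested clock genes in the 3 comparisons, with the 95% interval from limma; filled circles mark an adjusted p below 0.05. Per1 and Nr1d2 are filled at both doses, and Cry1 is the only one filled to the left of 0.

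Clock encodes the histone-acetylating bHLH-PAS partner of BMAL1. It read 5.27, 5.17, and 5.47 FPKM in the Ctrl libraries, 5.90, 5.59, and 6.16 in Ep1, and 6.40, 6.98, and 7.80 in Ep2. The 3 groups did not overlap in these values and lay in the order of the light dose. Against Ctrl the log2 fold change was 0.13 ± 0.07 (SE) in Ep1, with an adjusted p of 0.249 and a 95% interval from -0.03 to 0.28. It was 0.35 ± 0.07 in Ep2 (adjusted p = 0.00192), and 0.23 ± 0.07 between Ep2 and Ep1 (adjusted p = 0.0229). With trends on gene length and GC content removed from each library, an alternative added after seeing the data, the Ep2 value was 0.14 (adjusted p = 0.0245) and the Ep1 value -0.02. Clock is long in these files, at 13727 bases. It shares 459 bases with Ube2n-ps1 on the same strand, an entry at 3.25 to 6.69 FPKM whose symbol marks it as a pseudogene. On the log2 scale Ube2n-ps1 differed from Ctrl by -0.14 in Ep1 (adjusted p = 0.722) and -0.19 in Ep2 (adjusted p = 0.512). The part of this overlap in the Clock values was not tested.

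Per1 encodes a PERIOD repressor and showed the largest rise of the 8 at 10 J/cm2. It read 11.98, 12.11, and 9.84 FPKM in Ctrl, 20.8, 17.9, and 18.2 in Ep1, and 17.1, 17.3, and 19.2 in Ep2. Every treated library lay above every Ctrl library, and the treated groups overlapped each other. The mean was 1.68 times the Ctrl mean in Ep1 (log2 fold change 0.70 ± 0.09, adjusted p = 0.00538) and 1.58 times in Ep2 (0.62 ± 0.09, adjusted p = 0.000297). Between the doses the difference was -0.08 ± 0.09 (adjusted p = 0.489), with a 95% interval from -0.27 to 0.12. Per1 was read from 1029 to 2160 fragments per library.

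The PERIOD genes were not alike in level. Per2 read 0.753, 0.733, and 0.773 FPKM in Ctrl, 0.860, 0.743, and 0.865 in Ep1, and 0.493, 0.803, and 0.987 in Ep2. All groups overlapped, and the Ep2 libraries ranged more widely than the others, on 55 to 96 fragments. The difference in mean log2(FPKM + 1) from Ctrl was 0.06 in Ep1 and under 0.01 in size in Ep2. Per3 read 0.351, 0.373, and 0.336 FPKM in Ctrl, 0.389, 0.366, and 0.320 in Ep1, and 0.393, 0.495, and 0.451 in Ep2. Its Ep2 libraries all lay above the others, on 72 to 89 fragments, with a mean 1.26 times that of Ctrl. With every gene of any value tested, the adjusted p of Per3 for Ep2 against Ctrl was 0.370, and with voom on the recovered fragments it was 0.110. Per3 lies wholly within Camta1 on the same strand, a gene at 0.393 to 0.670 FPKM, so the reads of this pair cannot be told apart from the table alone.

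Cry1 and Cry2 encode the cryptochromes, the stronger repressors of the CLOCK and BMAL1 pair. Cry1 read 6.82, 5.91, and 6.74 FPKM in Ctrl, 7.78, 6.77, and 7.42 in Ep1, and 3.94, 5.09, and 4.58 in Ep2. The Ep1 and Ctrl libraries overlapped, and every Ep2 library lay below all the rest. Cry1 fell at 20 J/cm2, to 0.699 times the Ctrl mean (log2 fold change -0.44 ± 0.09, adjusted p = 0.00217) and to 0.620 times the Ep1 mean (-0.59 ± 0.09, adjusted p = 0.000574). In Ep1 the difference from Ctrl was 0.15 ± 0.09 (adjusted p = 0.271).

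Cry2 read 1.24, 1.21, and 1.28 FPKM in Ctrl, 1.73, 1.42, and 1.76 in Ep1, and 1.14, 1.44, and 1.59 in Ep2. All Ep1 libraries lay above Ctrl, whereas the Ep2 libraries lay on both sides of it. Against Ctrl, Cry2 differed by 0.23 ± 0.09 on the log2 scale in Ep1 (adjusted p = 0.137, 95% interval 0.02 to 0.44) and 0.09 ± 0.09 in Ep2 (adjusted p = 0.468, 95% interval -0.13 to 0.30), so neither passed the test. Whether Cry1 and Cry2 differ in their response was not tested.

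Both REV-ERB receptor genes were higher than in Ctrl at 20 J/cm2. Nr1d2 read 5.90, 4.98, and 5.10 FPKM in Ctrl, 8.30, 7.73, and 8.65 in Ep1, and 9.11, 10.1, and 11.7 in Ep2. The 3 groups did not overlap, and the gene had the largest rise of the 8 at 20 J/cm2. The mean was 1.55 times that of Ctrl in Ep1 (log2 fold change 0.55 ± 0.09, adjusted p = 0.00989) and 1.93 times in Ep2 (0.83 ± 0.09, adjusted p = 6.2e-05). Between the doses the difference was 0.29 ± 0.09 (adjusted p = 0.0256). At 10 J/cm2 the adjusted p was 0.0510 without Ctrl replicate 2 and 0.0506 without Ep1 replicate 3, with log2 fold changes of 0.51 in either fit.

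Nr1d1 read 8.66, 7.14, and 6.44 FPKM in Ctrl, 8.26, 9.51, and 9.66 in Ep1, and 9.86, 10.2, and 10.98 in Ep2. Its Ep1 libraries overlapped Ctrl through Ctrl replicate 1, and its Ep2 libraries lay above all the rest. On the log2 scale it differed from Ctrl by 0.28 ± 0.10 in Ep1 (adjusted p = 0.0934) and 0.44 ± 0.10 in Ep2 (adjusted p = 0.00395). Without Ctrl replicate 1, the Ep1 value was 0.38 with an adjusted p of 0.0462. Between the doses the difference was 0.16 ± 0.10 (adjusted p = 0.200). Nr1d1 shares 1075 bases with the thyroid hormone receptor gene Thra on the opposite strand, and the sources used here do not say whether counting used strand. Thra fell by 0.28 on the log2 scale in Ep1 (adjusted p = 0.0200) and by 0.31 in Ep2 (adjusted p = 0.00157). The part of this overlap in the Nr1d1 values was not tested.

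Dbp and Tef, the D-box activators, showed smaller differences from Ctrl. Dbp read 2.24, 2.72, and 2.52 FPKM in Ctrl, 1.81, 2.07, and 2.23 in Ep1, and 2.26, 3.43, and 3.20 in Ep2. Its Ep1 libraries lay below Ctrl by a narrow gap, and all Ep2 libraries lay above Ep1. Against Ctrl it differed on the log2 scale by -0.20 ± 0.12 in Ep1 (adjusted p = 0.282) and 0.17 ± 0.12 in Ep2 (adjusted p = 0.237), neither of which passed the test, while the difference between the doses was 0.37 ± 0.12 (adjusted p = 0.0264). With the gene length and GC correction, the Ep2 value against Ctrl was 0.40 and passed (adjusted p = 0.0295). It was read from 100 to 192 fragments. Dbp shares 737 bases with Sphk2, a sphingosine kinase gene on the opposite strand. On the log2 scale Sphk2 fell by 0.30 in Ep1 (adjusted p = 0.0418) and by 0.58 in Ep2 (adjusted p = 0.000278). The part of this overlap in the Dbp values was not tested.

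Tef read 7.01, 6.60, and 6.70 FPKM in Ctrl, 7.71, 7.78, and 7.99 in Ep1, and 6.68, 8.12, and 8.86 in Ep2. All Ep1 libraries lay above Ctrl, and Ep2 replicate 1 lay within the Ctrl range. Its differences from Ctrl on the log2 scale were 0.18 ± 0.08 in Ep1 (adjusted p = 0.168) and 0.19 ± 0.08 in Ep2 (adjusted p = 0.0806). The 2 doses differed by 0.00 ± 0.08, with a 95% interval from -0.18 to 0.19.

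Ep2 replicate 1 held the lowest value of its group for 10 of the 10 clock genes, while it was the lowest for 39.2% of all tested genes. Ep2 replicate 3 was the highest of the group for 7 of the 10 and replicate 2 for the other 3. How often each was the highest over all tested genes was not examined, so these counts have no background to be read against. The share of mitochondrial fragments was 2.04% in Ep2 replicate 1, 2.27% in replicate 2, and 2.49% in replicate 3. The part of this difference in the clock gene values was not tested. Without Ep2 replicate 1, Dbp and Tef passed the test at 20 J/cm2, with log2 fold changes of 0.31 (adjusted p = 0.0148) and 0.29 (adjusted p = 0.00171) against Ctrl, and the other 5 calls at that dose stayed. Ep1 replicate 2 was the lowest of its group for 6 of the 10, beside 34.7% of all tested genes.

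Of 29 further genes of the clock network, 21 passed the filter on low values. At 10 J/cm2, 4 of them rose and none fell, and at 20 J/cm2, 9 rose and 6 fell; between the doses, 4 were higher and 6 lower in Ep2. The 6 that fell at 20 J/cm2 include Btrc, which passed the filter only through the Ctrl libraries. The higher genes were 19.0% of the 21 at 10 J/cm2 and 42.9% at 20 J/cm2, beside 6.32% and 23.9% of all tested genes. The lower genes at 20 J/cm2 were 28.6%, near the 29.3% of all tested genes, and between the doses the shares of 19.0% higher and 28.6% lower were near the 18.8% and 25.2% of all tested genes. Single libraries moved these counts: the 4 at 10 J/cm2 became 1 without Ctrl replicate 1, Ctrl replicate 2, Ep1 replicate 1, or Ep1 replicate 3 and 9 without Ep2 replicate 1, and the 10 between the doses became 5 without Ctrl replicate 1, Ctrl replicate 2, or Ep1 replicate 3, 4 without Ep1 replicate 2, and 6 without Ep2 replicate 3. Processing moved the calls as well. Without a filter on low values, Nfil3, Csnk1a1, and Prkaa1 were lost at 10 J/cm2. Between the doses, that fit lost Nfil3, Bhlhe40, Wdr5, Ddb1, and Wee1. The fit of only the groups compared lost the same genes between the doses. At 10 J/cm2 it added Arntl, Bhlhe40, Fbxw11, Wee1, and Nampt. The median log2 fold change of the 21 was 0.11 at 10 J/cm2 and 0.08 at 20 J/cm2, beside -0.01 and -0.03 over all tested genes. The remaining 8 lay near or under 1 FPKM, among them the activator gene Npas2 (0.117 to 0.446 FPKM), the receptor genes Rora and Rorb, which drive the element that the REV-ERB proteins repress (each at most 0.691 FPKM), and the D-box gene Hlf (at most 0.0942 FPKM). Bhlhe41, Prkaa2, Fbxl21, and Usp2 were the others. In Npas2, Rora, and Rorb, all treated libraries lay above Ctrl, and in Bhlhe41 and Fbxl21 all Ep2 libraries did. Hlf, Prkaa2, and Usp2 overlapped Ctrl at both doses. Means in Ep1 and Ep2 were 2.84 and 3.71 times Ctrl for Rorb and 1.66 and 2.53 times for Npas2. They rested on 24 to 127 and 11 to 40 fragments. For Bhlhe41 the Ep2 mean was 1.93 times that of Ctrl, on 56 to 153 fragments. These 8 genes have no adjusted p here.

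Among the activators, Arntl, the partner of Clock and the target of the REV-ERB proteins, had Ctrl, Ep1, and Ep2 means of 3.83 ± 0.126, 4.56 ± 0.220, and 5.41 ± 0.373 FPKM. It rose at 20 J/cm2 (log2 fold change 0.41, adjusted p = 0.000392), and the 10 J/cm2 value was 0.20 (adjusted p = 0.0570). Its paralog Arntl2 fell at 20 J/cm2 (-0.28, adjusted p = 0.0130), and without Ctrl replicate 2 the value was -0.22 (adjusted p = 0.0547). Nfil3, which represses through the D-box that Dbp and Tef activate, rose at both doses, by 0.38 (adjusted p = 0.0251) and 0.62 (adjusted p = 0.000269). Bhlhe40, an E-box repressor, had an average of 9.40 ± 0.212 FPKM in Ctrl and rose at 20 J/cm2 (0.80, adjusted p = 0.00400), where replicate 1 read 23.3 FPKM beside 14.1 and 15.01 in the others; Ep2 replicate 1 was thus the highest for this gene and the lowest for the 10 clock genes.

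Among the enzymes that modify PER and CRY proteins, 4 of 5 tested kinase genes rose at 20 J/cm2 and none fell, beside 23.9% of all tested genes higher and 29.3% lower. Gsk3b rose by 0.30 at 10 J/cm2 (adjusted p = 0.00879) and 0.50 at 20 J/cm2 (adjusted p = 2.9e-05), and Csnk1a1 by 0.20 and 0.29 (adjusted p = 0.0225 and 0.000495). Prkaa1, the AMPK catalytic subunit, rose by 0.17 at either dose (adjusted p = 0.0255 and 0.00457), and the casein kinase gene Csnk1e by 0.26 at 20 J/cm2 (adjusted p = 0.00837). At 10 J/cm2 the call for Gsk3b held in all 18 alternative fits, whereas those for Nfil3, Csnk1a1, and Prkaa1 were lost in 5, 6, and 7 of them. Of the β-TrCP genes, which act on PER proteins, Fbxw11 was higher at 20 J/cm2 (0.16, adjusted p = 0.0101) and Btrc lower (-0.26, adjusted p = 0.0289). Btrc reached 1 FPKM only in the Ctrl libraries (1.11, 1.25, and 1.06), with at most 0.990 in Ep1 and 0.844 in Ep2. It thus passed the filter only through the group where it was highest, which favours a lower call, so no weight is put on that call. The Btrc call was lost in 6 alternative fits: with the medians of the libraries made equal (adjusted p = 0.0633), with the replicate block (0.0575), with only the groups compared (0.0666), and without Ctrl replicate 1, Ctrl replicate 2, or Ep2 replicate 2 (0.0610, 0.102, and 0.0908).

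The 4 tested partners of PER and CRY proteins were all lower in Ep2 than in Ep1, and 3 of them were lower than in Ctrl, beside 25.2% and 29.3% of all tested genes. Timeless, which is also a replication fork protein, averaged 12.9 ± 0.450 FPKM in Ctrl cells and 6.94 ± 0.236 FPKM in Ep2 cells (log2 fold change -0.81, adjusted p = 7e-06), with all Ep2 libraries below all others. Nono fell by 0.22 (adjusted p = 0.00175) and Ddb1 by 0.17 (adjusted p = 0.00586) at 20 J/cm2, while Wdr5 was lower only against Ep1 (-0.13, adjusted p = 0.0465). Between the doses, the calls for Timeless and Nono held in all 18 alternative fits, that for Ddb1 in 5, and that for Wdr5 in 4. With the gene length and GC correction the adjusted p of Ddb1 for Ep2 against Ctrl was 0.0759. Among output genes, Nampt, the rate-limiting enzyme of NAD+ salvage, rose at 20 J/cm2 (0.32, adjusted p = 0.00256) and Tspan4 fell (-0.32, adjusted p = 0.00201), the latter at -0.09 (adjusted p = 0.355) after that correction. Wee1, a cell cycle kinase gene, was lower in Ep2 than in Ep1 (-0.34, adjusted p = 0.0439), a call that held in 4 of 18 alternative fits.

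**Figure D4:**
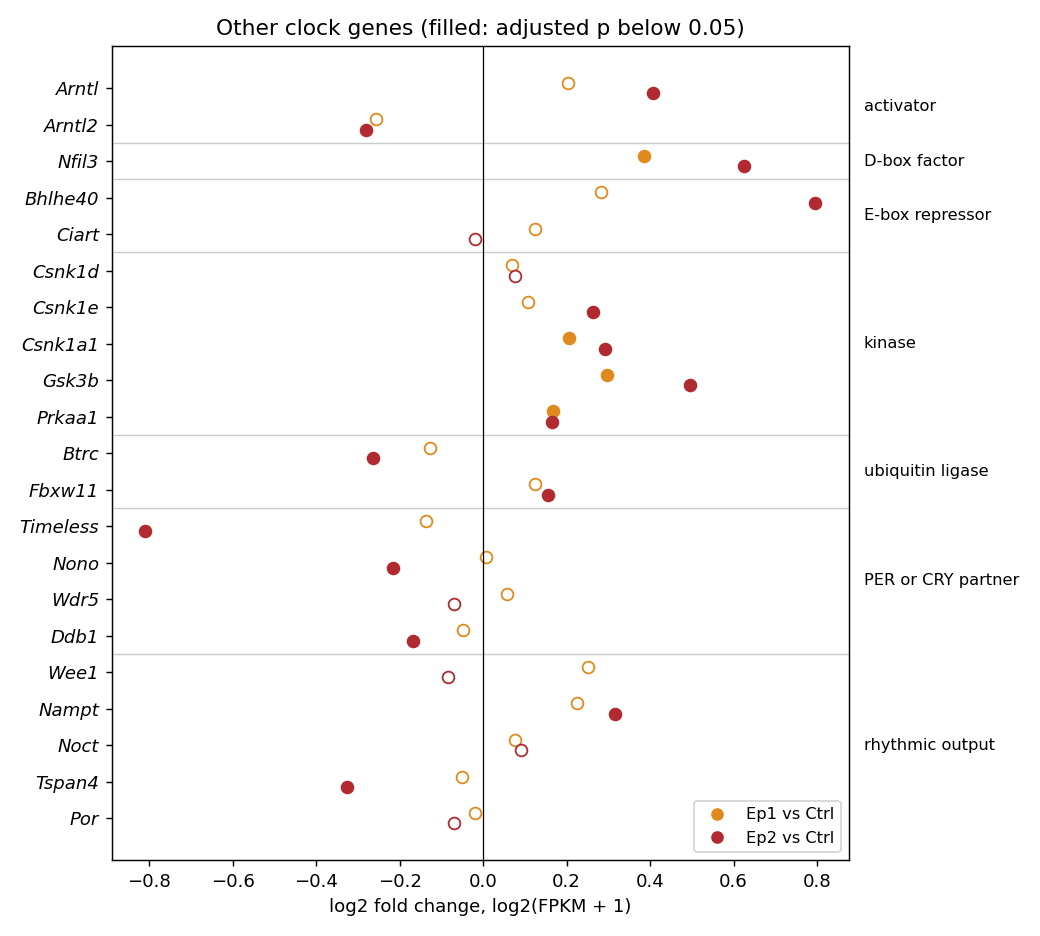
Difference in mean log2(FPKM + 1) from Ctrl of the 21 tested further clock genes, by role, for Ep1 (orange) and Ep2 (red); filled circles mark an adjusted p below 0.05 in limma. Kinase genes lie to the right of 0 at both doses, and Timeless lies farthest to the left at 20 J/cm2.

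The genes whose values over the 9 libraries were most like those of the leading clock genes were named as a description, by Pearson correlation of log2(FPKM + 1). For Per1 they were Sf1 (r = 0.988), a splicing factor gene, Ppp1r10 (0.985), Akirin2 (0.977), Dyrk1a (0.972), and Irs2 (0.970). Among the other tested genes of the 10, Nr1d2 was nearest (0.865). For Nr1d2 they were Hipk1 (0.993), Qk (0.992), Lats1 (0.988), Sgms2 (0.986), and Crebbp (0.985), and the nearest of the 10 was Clock (0.916). For Cry1 they were Wdr4 (0.980), Ttc27 (0.973), Gtf3c2 (0.973), Sssca1 (0.972), and Desi1 (0.972), while the nearest of the 10, Cry2, reached 0.443. The further clock genes were left out of this search, so how closely they follow these genes was not tested. These 9 points share 3 groups and 1 normalization.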

How the data were processed

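Total RNA of 9 libraries was sequenced. The deposited values are FPKM per gene and library, made by the authors; the submitters' processing notes name Bowtie 0.12.2 and mm8 and the methods name GRCm39, whereas 99.88% of 36526 genes compared overlap GRCm38 positions and 12.37% overlap GRCm39 positions. The 9 single-library tables equal the joint table. FPKM multiplied by gene length gave whole fragments within 0.05 for 100% of values examined, so depth was known. A value of 0 is a count of 0 fragments, which an expected count of up to 3 fragments can give.

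Genes with at least 1 FPKM in at least 3 libraries (11727) were tested as log2(FPKM + 1) in 1 model of all libraries with limma 3.58.1 in R 4.3.3 (lmFit, contrasts, eBayes with trend and robust estimation, two-sided), adjusted by Benjamini-Hochberg within each comparison and called at 0.05. The script was tested on simulated data in which the changes were larger than any reported here for a clock gene. That test therefore does not show how well differences of the reported size are found. The clock genes and the further lists were chosen with earlier results of these data known. All 10 clock genes are named; further clock genes are named where they passed the test in any comparison or lay near 0. Some genes of the list are not reported here and enter no count. Like genes are the 5 of highest correlation, outside the lists, with the gene of smallest adjusted p in each comparison. Alternatives were no filter, a filter at 5 FPKM, a pseudocount of 0.1, median centring, correction for gene length, a replicate block, only the groups compared, a minimum fold change, voom on recovered fragments (14112 genes), and each library left out; removal of trends on gene length and GC content was chosen after seeing the data. Gene copies were not separated. Sequences and start sites are from RefSeq (GRCm38.p6).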

Additional observations from a re-analysis of the deposited data

How the results depend on the processing

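The number of clock genes past the adjusted p was 2 at 10 J/cm2, 5 at 20 J/cm2, and 4 between the doses. A minimum absolute log2 fold change of 0.6 gave 1, 2, and 0. Without a filter on low values the count between the doses was 1 (Cry1). Gene length and GC correction gave 3 at 10 J/cm2, and the fit of only the groups compared also gave 3. At 20 J/cm2 that correction gave 7, adding Dbp and Tef, and median centring and voom on recovered fragments each gave 6, adding Tef. The fit of only the groups compared gave 3 between the doses, without Clock (adjusted p = 0.0501). With each library left out, the counts ranged from 1 to 3 at 10 J/cm2, from 5 to 7 at 20 J/cm2, and from 1 to 4 between the doses. The count of 1 at 10 J/cm2 came without Ctrl replicate 2 or Ep1 replicate 3 and left Per1. The count of 1 between the doses came without Ep1 replicate 1, Ep1 replicate 2, Ep2 replicate 2, or Ep2 replicate 3 and left Cry1, so the dose differences of Clock, Dbp, and Nr1d2 rest on all of these libraries. The calls for Per1, Cry1, Clock, Nr1d1, and Nr1d2 at 20 J/cm2, for Per1 at 10 J/cm2, and for Cry1 between the doses held in all 18 alternative fits. Of the further clock genes, Por changed sign for Ep2 against Ctrl under the gene length and GC correction (0.10, adjusted p = 0.0400). With voom on recovered fragments Per2 and Per3 were testable, at log2 fold changes of 0.11 for Per2 at 10 J/cm2 and 0.35 for Per3 at 20 J/cm2 (adjusted p = 0.763 and 0.110).

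Samples with the same replicate number did not deviate together: the correlations of their deviations from the group means lay between -0.056 and 0.074, and libraries did not each correlate best with their own number. A model with the replicate number as a block gave counts of 2, 5, and 4 clock genes. Over all tested genes the block called 1051, 6110, and 4983 genes, beside 1324, 6236, and 5156 without it. At 10 J/cm2 the number of all tested genes called was lowest without Ep1 replicate 3, at 191, and highest without Ep2 replicate 1, at 2183.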
